A study of Homo sapiens with 4 samples.

Results

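The replication-dependent histone genes encode the H1, H2A, H2B, H3 and H4 proteins that package newly copied DNA. They were taken here by gene symbol as the H1-1 to H1-6 genes, the genes of the H2AC, H2BC, H3C and H4C series, H4-16 and H3-4, which gave 68 of the 46427 genes in the table: 6 H1, 16 H2A, 17 H2B, 14 H3 and 15 H4 genes. Messenger RNA was sequenced in an established human line of gastric cancer cells, SNU638, to ask how the m6A reader protein YTHDF1 bears on the response to IFN-γ. Cells with a control vector and cells overexpressing YTHDF1 were compared, with 2 libraries of each labelled biological replicates 1 and 2. All 4 libraries came from cells deprived of serum for 24 h and then given IFN-γ at 10 ng/ml. The labels have this last for 8 h, and the study's own text gives another duration. No library without serum withdrawal or without IFN-γ was compared, so the histone levels are those of serum-deprived, cytokine-treated cells. Both groups were 1 cell line, and the labels do not say whether the replicate numbers mark a shared culture, day or batch, so that p-values measure only the spread between libraries.

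A cell makes these histones mainly in S phase, when it copies its DNA. Their genes lie in clusters, lack introns in the coding part and exist in many near-identical copies. Most of their mRNAs do not end in a poly(A) tail. They end just after a stem-loop that is bound by SLBP, the stem-loop binding protein, and NPAT at the histone gene clusters drives their transcription in response to cyclin E. Libraries made by selecting poly(A) RNA, as here, therefore hold only a part of this mRNA, enriched in the minority of transcripts that run past the stem-loop and gain a tail.

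The stem-loop itself is shown because a transcript that ends at it carries no tail. Its 16 bases were searched on the sense strand, with the 3 that vary between histone genes left free. The search covered the whole length of protein-coding transcripts of GENCODE release 29 on GRCh38. The models of 34 histone genes run past the stop codon, and 29 of these held the stem-loop, against 34 of 19702 genes of all kinds, which is 0.173%. In these 29 genes the match taken lay after the stop codon. The models of the other 34 end at the stop codon and hold no bases after it in which the stem-loop could lie. By class the stem-loop was found in 6 of 6 H2A, 10 of 11 H2B, 5 of 6 H3 and 8 of 9 H4 genes with such models, and in 0 of 2 H1 genes. These 2 H1 models, of H1-4 and H1-6, run only 57 and 51 bases past the stop codon. In the other classes the stem-loop starts from 22 bases past the stop codon, in H4C11, to 67 bases, in H2AC18 and H2AC19. Some of these positions would fit within the 2 H1 models and others would not. Whether these models end too early to hold a stem-loop was not tested. Examples from 4 classes follow, 5′ to 3′ on the sense strand, with the stem-loop in capitals and 5 bases on either side.
H2AC18 transcript on chromosome 1, minus strand: caaaaGGCTCTTTTCAGAGCCaccca
H2AC6 transcript on chromosome 6, plus strand: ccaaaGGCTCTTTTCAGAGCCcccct
H2BC21 transcript on chromosome 1, minus strand: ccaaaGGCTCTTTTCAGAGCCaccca
H2BC5 transcript on chromosome 6, plus strand: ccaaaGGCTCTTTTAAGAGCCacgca
H3C10 transcript on chromosome 6, plus strand: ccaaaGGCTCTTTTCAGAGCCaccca
H4C15 transcript on chromosome 1, minus strand: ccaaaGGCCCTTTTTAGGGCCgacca
H4-16 transcript on chromosome 12, minus strand: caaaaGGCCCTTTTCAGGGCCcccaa
The form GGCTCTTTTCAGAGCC was held by 5 H2A, 7 H2B and 3 H3 genes, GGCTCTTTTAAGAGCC by 3 H2B and 2 H3 genes and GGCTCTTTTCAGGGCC by 1 H2A gene. The 8 H4 genes held either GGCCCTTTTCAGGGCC, in 5 genes, or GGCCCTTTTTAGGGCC, in 3 genes, and no H2A, H2B or H3 gene held either of these forms. The H2AC18 model ends 35 bases after the stem-loop and that of H4C11 ends 6 bases after it, whereas the H2BC21 model runs on for 1729 bases, that of H2AC6 for 1114 bases and that of H4C15 for 690 bases. In all, 20 genes had a model with more than 100 bases after the stem-loop, and 9 had 100 or fewer.

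The promoters differed by class. RefSeq promoters on GRCh38.p14 were matched for 63 of the 68 genes, and the 250 bases before the start were searched on both strands. CCAAT, the box bound by NF-Y, stood in all 6 H1, 15 H2A, 17 H2B and 12 H3 promoters but in 3 of 13 H4 promoters, against 37.0% of 27305 promoters of all genes. ATTTGCAT, the octamer bound by OCT1, which POU2F1 encodes, stood in 14 of 17 H2B and 11 of 15 H2A promoters (82.4% and 73.3%), in 1 of 12 H3 promoters and in no H1 or H4 promoter, against 2.03% of all promoters. TATAAA, a form of the TATA box, was found in 44 of 63 (69.8%), against 3563 of the 27305. Matches of different motifs can share at most 2 bases at their ends, and a match describes these letters only. The 120 bases before the start of 4 abundant genes follow as single examples, and motifs farther from the start fall outside them. They are written along the gene's own strand with the motifs in capitals in either orientation.
H2BC12, chr6:27146859-27146978, minus strand: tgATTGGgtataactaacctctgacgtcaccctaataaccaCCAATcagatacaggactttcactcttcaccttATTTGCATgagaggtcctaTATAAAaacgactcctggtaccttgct
H2AC6, chr6:26124052-26124171, plus strand: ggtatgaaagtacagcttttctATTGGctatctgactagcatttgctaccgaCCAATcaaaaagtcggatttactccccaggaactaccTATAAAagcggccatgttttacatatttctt
H3C10, chr6:27809931-27810050, plus strand: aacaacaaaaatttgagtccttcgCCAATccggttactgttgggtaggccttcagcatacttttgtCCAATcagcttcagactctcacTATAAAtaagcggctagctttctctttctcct
H4C8, chr6:26285535-26285654, minus strand: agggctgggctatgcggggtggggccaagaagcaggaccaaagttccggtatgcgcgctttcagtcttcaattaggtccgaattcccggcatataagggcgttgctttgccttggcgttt
In this window H2BC12 holds the octamer, CCAAT boxes and TATAAA, H2AC6 and H3C10 hold CCAAT boxes and TATAAA, and H4C8 holds none of these letters. H2AC6 also holds the octamer in its 250 bases, outside the part shown. TATAAA stood in 7 of 13 H4 promoters, though not in that of H4C8.

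Before the histone values, 2 facts of the libraries bear on all of them. Total counts ran from 57398137 to 60864942, and YTHDF1 itself stood at 82.2 and 80.3 CPM (counts per 1000000 of edgeR's effective library size) in the control libraries of replicates 1 and 2. It reached 16494 and 2628 CPM in the YTHDF1 libraries, so both vectors gave what their labels say and the overexpression was higher in replicate 1. The libraries also divided by replicate number. A level of at least 5 CPM in replicate 1 of both vectors with less than 0.5 CPM in replicate 2 of both was found for 233 genes, the opposite for 1 gene, and 0 genes divided the vectors in this way. No histone gene of the 68 was among any of them. Epithelial markers (EPCAM, KRT8, KRT18, KRT19 and CDH1) were high throughout, with a summed level of 3861 to 6719 CPM. The 3 keratins were higher in replicate 2 of both vectors and CDH1 and EPCAM lower. The 5 fibroblast markers summed to 6.58 to 11.7 CPM, most of it COL1A1. The 4 endothelial markers summed to 0.232 to 0.934 CPM, with KDR and PECAM1 counted in replicate 1 alone. COL1A2 was at 0 in all 4 libraries, and DCN, CDH5, KDR and PECAM1, with the immune markers PTPRC, CD3E and LYZ, in at least 1. The part of these differences in the histone values was not tested.

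Histone mRNA was scarce in these libraries, and a few genes held most of it. All 68 genes together made up 0.0185% (control replicate 1), 0.0248% (control replicate 2), 0.0160% (YTHDF1 replicate 1) and 0.0232% (YTHDF1 replicate 2) of a library, from 9359 to 14209 counts. The mean over the 4 libraries was 10 CPM or more for 7 genes, 1 to 10 CPM for 19 genes and under 1 CPM for 42 genes. The 7 genes were H2BC12, H1-2, H2BC5, H2BC21, H2AC6, H3C6 and H4C15, at least 1 of each class, and they held 67.8% to 70.6% of the histone counts in each library. At the other end 4 genes were listed with no count in any library (H2AC1, H2BC1, H3-4 and H4C7), which allows up to 3 counts in each, and 3 further genes had 3 counts or fewer throughout. H2AC1, H2BC1 and H3-4 are known for expression in the testis. A total of 47 genes passed the filter on low counts and were tested with 17781 genes in all: 4 H1, 12 H2A, 12 H2B, 9 H3 and 10 H4.

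**Figure D1:**
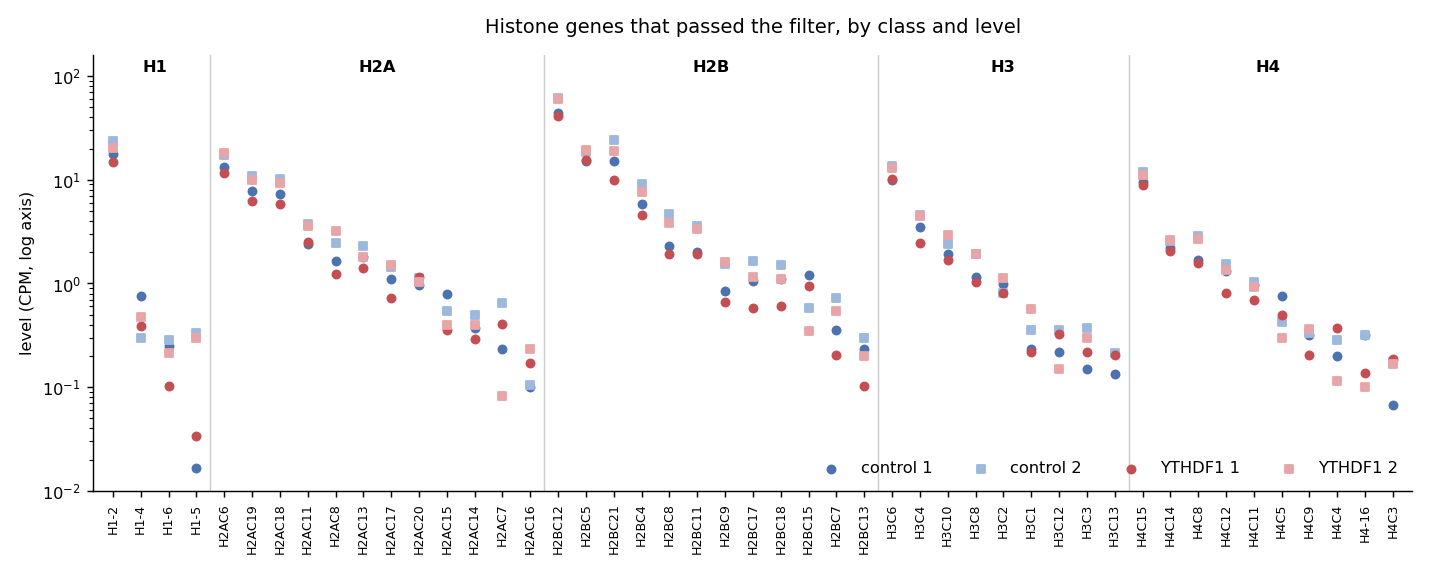
Level of each of the 47 tested histone genes in the 4 libraries (CPM, log axis), by class and in order of mean level. Circles are replicate 1, squares replicate 2, blue control and red YTHDF1, and values of 0 are not drawn. H2BC12 stands highest, with a mean of 51.3 CPM, and in most genes the squares lie above the circles of both colours.

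The division among classes hardly moved between libraries. H2B genes held 49.0% to 50.9% of the histone counts, H2A genes 20.3% to 21.3%, H3 genes 9.97% to 10.9%, H1 genes 9.18% to 10.3% and H4 genes 8.47% to 9.80%. These are shares of counts and not of molecules, since long transcripts give more reads. In RefSeq, 8 genes span more than 1000 bp (H2BC4, H2BC5, H2BC12, H2BC18, H2BC21, H3C4, H3C6 and H4C15), and this small group held 57.1% to 58.7% of the counts. The span is measured along the genome and is not the length of a transcript. H2BC5 spans 13229 bp, for example, and its longest GENCODE transcript has 789 bases. The 6 genes listed for a known polyadenylated form (H1-2, H2AC6, H2BC4, H2BC5, H2BC12 and H2BC21) held 60.9% to 61.6%.

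**Figure D2:**
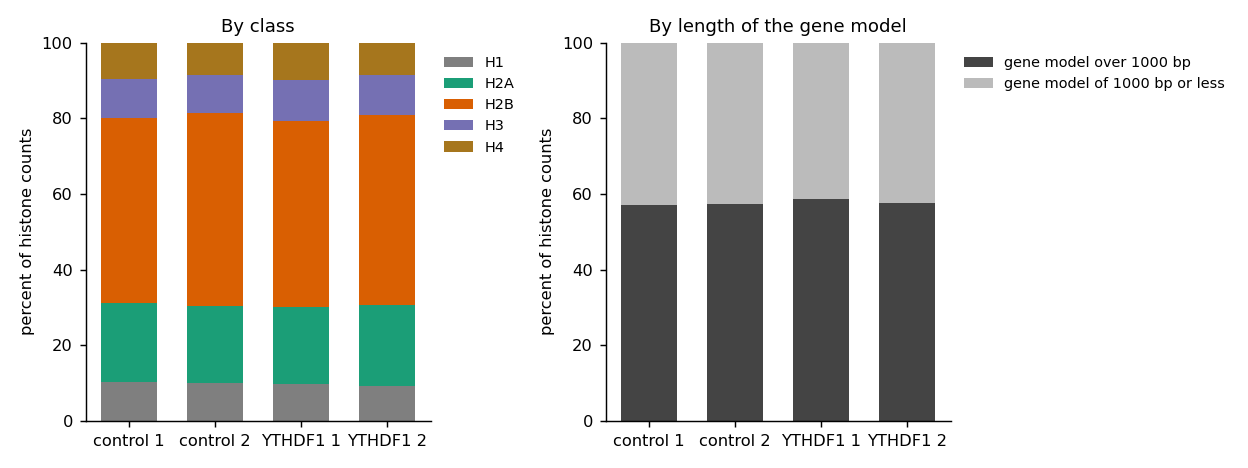
Share of the histone counts of each library (percent) held by each class, left, and by genes with a gene model over 1000 bp or of 1000 bp or less, right. H2B takes 49.0% to 50.9% and the 8 long models take 57.1% to 58.7% in every library.

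Levels per length depended on the gene model, and were set only among the 60 genes whose RefSeq span is 1000 bp or less. By that span H2AC6 was highest at 29.1 CPM per kb on average over the 4 libraries, followed by H1-2 at 26.3, H2AC19 at 16.3 and H2AC18 at 15.4 CPM per kb. H2AC6 (22.5 to 35.0 CPM per kb) and H1-2 (20.3 to 32.5 CPM per kb) overlapped across the libraries, and so did H2AC19 (11.7 to 20.4 CPM per kb) and H2AC18 (11.03 to 19.2 CPM per kb). With the longest GENCODE transcript in place of the span, a setting chosen after seeing the data, the order became H1-2 at 29.9, H2AC19 at 15.5, H2AC18 at 14.9 and H2AC6 at 9.14 CPM per kb. H2AC6 thus lost the first place, as its span is 519 bp and its longest transcript 1654 bases. The next 2 genes by span, H2BC8 at 6.47 and H2AC11 at 6.19 CPM per kb, came to 2.06 and 1.36 CPM per kb with transcripts of 1534 and 2250 bases. These same 4 genes led under both lengths.

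Summed over the 68 genes, the histone level was 183 and 251 CPM in the control libraries, replicate 1 before replicate 2 as in all values that follow, and 159 and 234 CPM in the YTHDF1 libraries. Replicate 2 was the higher library of both vectors, and the groups overlapped (control 217 ± 47.9 CPM, YTHDF1 197 ± 53.1 CPM, SD, n = 2 each). Within replicate number 1 the YTHDF1 library was lower (log2 ratio −0.20), and within number 2 too (−0.098). The ratio of the means was −0.14 on the log2 scale and did not exceed the spread between replicates (exact permutation test over libraries, two-sided, p = 0.667), in a design that cannot give a p below 0.333. From bulk RNA, fewer cells in S phase and less histone mRNA in each cell cannot be told apart.

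Every class repeated this order of libraries. H2B summed to 89.6 and 128 CPM in control and 78.3 and 118 CPM with YTHDF1. For H2A the sums were 38.1 and 51.5 CPM against 32.2 and 49.9 CPM, and for H1 they were 18.9 and 24.9 CPM against 15.5 and 21.5 CPM. The groups overlapped in each. The H3 sums were 18.7 and 24.97 CPM in control and 17.4 and 24.7 CPM in YTHDF1, and those of H4 were 17.5 and 21.6 CPM and 15.6 and 19.8 CPM. All 5 classes were thus lower with YTHDF1 within both replicate numbers, by log2 ratios from −0.10 for H3 to −0.29 for H1 in number 1 and from −0.014 for H3 to −0.21 for H1 in number 2. None exceeded the spread between replicates (exact permutation test, two-sided, p = 0.667 for each of the 5 class sums).

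**Figure D3:**
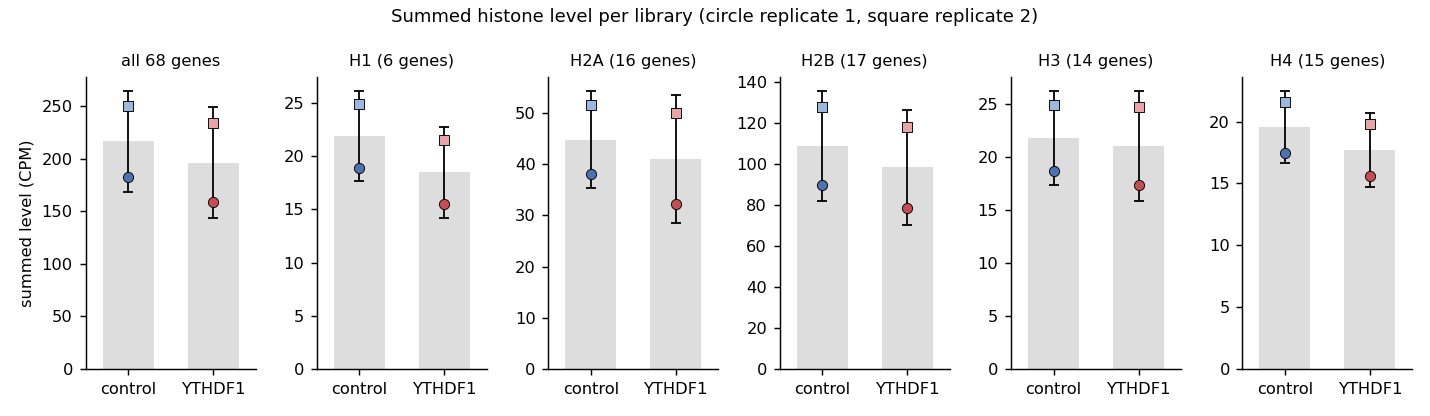
Summed level (CPM) of all 68 histone genes and of each class. Bars are means of 2 libraries, error bars are SD, circles are replicate 1 and squares replicate 2. In every panel replicate 2 lies above replicate 1, and the YTHDF1 library lies below the control library of the same number.

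By level, the sum of the 42 genes under 1 CPM was the only 1 of the 3 level groups in which control and YTHDF1 did not overlap. It stood at 9.84 and 10.6 CPM in the controls and at 7.74 and 8.71 CPM with YTHDF1 (log2 ratio −0.31, exact permutation p = 0.333, the smallest this design can give). In the 19 genes of 1 to 10 CPM the sums were 48.0 and 70.1 CPM against 39.0 and 64.8 CPM, and in the 7 genes of 10 CPM or more they were 125 and 170 CPM against 112 and 161 CPM, with overlap in both. The sum of the least abundant genes also differed least between replicate numbers: replicate 2 was 1.08 and 1.13 times replicate 1 in the lowest group, 1.46 and 1.66 times in the middle group and 1.36 and 1.43 times in the highest, for control and YTHDF1.

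Gene by gene, no histone gene passed the study's threshold of a log2 fold change of 0.5 in size with an unadjusted p under 0.05 (edgeR's quasi-likelihood test). Among all genes tested, 0.0787% passed it as lower with YTHDF1 and 0.0225% as higher, and at shares this low 0 of 47 is not a result about the histone genes. After adjustment over all genes the share called was 0%, and every histone gene had an adjusted p of 1.00. Unadjusted p was under 0.05 for 24 of all genes tested (0.135%) and for 0 histone genes, and DESeq2's Wald test and limma-voom also called no histone gene. A fit with the replicate number as a block called 1, H2BC17, among 192 genes in all. The direction was less even: 38 of 47 histone genes (80.9%) were lower with YTHDF1 over the 4 libraries, against 47.8% of all genes, and 25 of 47 (53.2%) were lower within both replicate numbers, against 24.5%. Higher within both numbers were 2 genes, H2BC5 and H2AC16, against a background of 25.9%. Histone genes share regulation, library and, in part, sequence, so they are not 47 separate observations.

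The median log2 fold change was −0.21 over the 47 genes and 0.0046 over all genes tested. H2B had the lowest class median, −0.36, with 11 of 12 genes lower and 10 of 12 lower within both numbers. The medians were −0.26 for H1 (4 of 4 lower), −0.20 for H2A (9 of 12), −0.15 for H4 (8 of 10) and −0.026 for H3 (6 of 9). H3 was the class nearest to the median of all genes, with 2 of its 9 genes lower within both numbers. Whether the classes differ from one another was not tested. By level the medians were −0.064, −0.19 and −0.30 from the most to the least abundant group, where all genes at those levels had medians of 0.010, −0.017 and −0.053. Within replicate number 1 the median over the histone genes tested was −0.28 and within number 2 it was −0.14, with 35 of 47 genes lower in each. Leaving out 1 library sets unlike replicate numbers against each other, and the median was then 0.078 without YTHDF1 replicate 1 and −0.55 without YTHDF1 replicate 2.

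**Figure D4:**
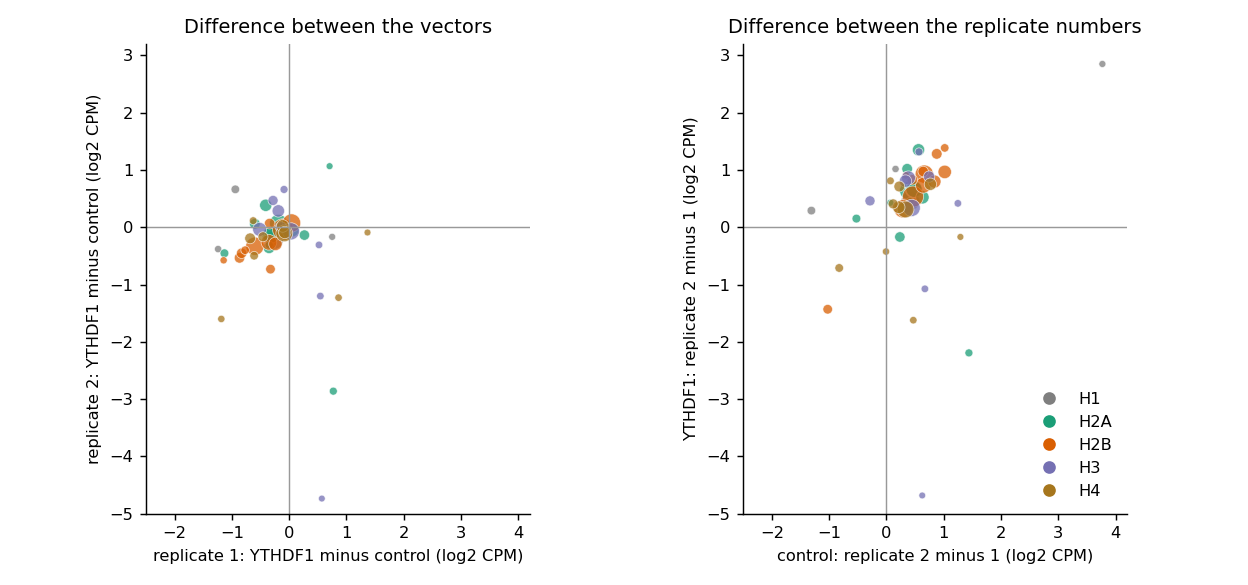
Each of the 47 tested histone genes by its difference on the log2 CPM scale: left, YTHDF1 minus control in replicate 1 (x) and replicate 2 (y), right, replicate 2 minus replicate 1 in control (x) and YTHDF1 (y). Larger points are more abundant genes and colours are classes. On the left 25 genes lie below 0 on both axes, and on the right 35 genes lie above 0 on both axes.

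Histone genes were mostly higher in replicate 2. Replicate 2 was above replicate 1 in both vectors for 35 of 47 histone genes (74.5%), against 40.4% of all genes tested, and below it in both for 3, against 43.4%. The median difference was 0.44 on the log2 scale in control and 0.54 with YTHDF1, where all genes had −0.015 and −0.018. By size the mean of both differences exceeded that between the vectors in 37 of the 47 genes (78.7%), which is near the 83.6% of all genes tested. H2B had the largest class medians, 0.64 and 0.87, with 11 of 12 genes higher in replicate 2 of both vectors, and H4 the smallest, 0.22 and 0.33. The numbers have no stated meaning, so this is a description of the libraries and no test was made of it.

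Linker histones of the H1 class bind the DNA that enters and leaves the nucleosome. H1-2 was almost the whole of the class, at 17.8 and 23.8 CPM in control and 14.8 and 20.4 CPM with YTHDF1. Each YTHDF1 library was below the control of its number, yet the groups overlapped (log2 fold change −0.24, SE 0.26). H1-4 stood at 0.757 and 0.300 CPM against 0.391 and 0.480 CPM, with opposite directions in the 2 numbers. The testis-linked H1-6 had 15 and 16 counts in control and 6 and 13 with YTHDF1, without overlap (log2 fold change −0.74, SE 0.67). H1-5, named after its values were seen, had 1 count in replicate 1 and 19 in replicate 2 of control, and 2 and 18 counts with YTHDF1. It thus followed the replicate number and not the vector.

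H2A pairs with H2B in the dimers that close the nucleosome. H2AC6, the most abundant H2A gene, read 13.3 and 17.3 CPM in control and 11.7 and 18.2 CPM with YTHDF1, lower in number 1 and higher in number 2 (log2 fold change −0.036, SE 0.31). H2AC19 read 7.85 and 10.9 CPM against 6.25 and 9.89 CPM, and H2AC18 read 7.33 and 10.2 CPM against 5.88 and 9.32 CPM. These 2 genes are near-identical copies on chromosome 1, and their counts kept a ratio of 1.06 to 1.07 in all 4 libraries, so reads may have been divided between them and neither is a separate observation. H2AC13 had the lowest fold change among H2A genes of at least 1 CPM, with 1.80 and 2.31 CPM in control and 1.41 and 1.81 CPM with YTHDF1 (log2 −0.35, SE 0.35), and H2AC8 the highest, with 1.65 and 2.43 CPM against 1.24 and 3.18 CPM (0.11, SE 0.61). The groups overlapped only at the boundary for H2AC13, where YTHDF1 replicate 2 lay just above control replicate 1. H2AC16, also named after its values were seen, was the only histone gene higher without overlap, with 6 and 6 counts in control and 10 and 14 with YTHDF1. That is 1 of 47 genes, or 2.13%, against 5.67% of all genes tested.

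H2B was the largest class by counts, and H2BC12 alone was 44.1 and 60.8 CPM in control and 40.9 and 59.4 CPM with YTHDF1 (log2 fold change −0.064, SE 0.27). Its RefSeq model covers chr6:27138293-27146858 on the minus strand and contains H4C9 on the other strand. H2BC21 was the abundant gene with the lowest fold change, at 15.2 and 24.0 CPM in control and 10.0 and 19.1 CPM with YTHDF1 (−0.43, SE 0.44). Both YTHDF1 libraries were below the control of the same number, but replicate 2 with YTHDF1 was above control replicate 1. H2BC5 did the opposite, at 15.2 and 18.5 CPM against 15.6 and 19.5 CPM (0.061, SE 0.21), and its RefSeq model overlaps that of LARP1P1. H2BC17, at 1.06 and 1.66 CPM in control and 0.577 and 1.14 CPM with YTHDF1, had the lowest fold change of the H2B genes of at least 1 CPM (−0.66, SE 0.54), again with overlap.

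H3 carries most of the modified tail residues known in chromatin. H3C6 read 10.0 and 13.6 CPM in control and 10.2 and 12.9 CPM with YTHDF1, which is no more than the spread of either pair (log2 fold change −0.026, SE 0.26). H3C4 read 3.50 and 4.57 CPM against 2.45 and 4.46 CPM (−0.22, SE 0.43), and its model contains H2AC7. H3C10 read 1.92 and 2.42 CPM against 1.68 and 2.95 CPM (0.096, SE 0.43). The groups overlapped in all 3 of these genes. H3C14 and H3C15 had the same counts in every library, 8 and 3 in control and 4 and 2 with YTHDF1, and count as 1 observation.

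H4 is the most conserved of the core histones. H4C15 read 9.44 and 11.9 CPM in control and 8.90 and 11.05 CPM with YTHDF1 (log2 fold change −0.096, SE 0.24), and its model contains H2AC19 and H3C15. H4C14 read 2.20 and 2.56 CPM against 2.04 and 2.60 CPM (−0.037, SE 0.32), and H4C8 read 1.67 and 2.84 CPM against 1.58 and 2.67 CPM (−0.085, SE 0.49). The groups overlapped in all of these. H4C12 had the lowest fold change of the class among genes of at least 1 CPM, with 1.31 and 1.53 CPM in control and 0.815 and 1.34 CPM with YTHDF1 (−0.40, SE 0.42). H4-16, the only member on chromosome 12, had the smallest unadjusted p of the 47 genes and is named for that after its values were seen. Its counts were 19 and 18 in control and 8 and 6 with YTHDF1 (log2 fold change −1.42, SE 0.58, unadjusted p = 0.0753 by edgeR), at 0.218 CPM on average. H4-16 was lower in both replicate numbers, by −1.18 and −1.60 on the log2 scale, and its control libraries were almost equal. It was 1 of 6 tested genes (12.8%) lower without overlap, beside H1-6, H2AC15, H2BC13, H2BC18 and H4C11, against 5.83% of all genes tested. The RefSeq model of H2BC18 overlaps that of FCGR1A.

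H2A and H2B genes often stand head to head and share the bases between their starts. Starts within 500 bases, on opposite strands, joined 12 pairs, of which 11 were an H2A with an H2B gene, and the gap was 193 to 247 bases. The partners were not alike in CPM, which does not allow for length. H2BC12 spans 8566 bp of the genome in RefSeq and its partner H2AC12 457 bp. Their GENCODE transcripts have 381 and 387 bases, and both end at the stop codon. Among 10 such pairs with counts in both, the H2B gene was the higher in 5, and the ratio of H2B to H2A ran from 0.114 for H2BC13 with H2AC13 to 391 for H2BC12 with H2AC12. The log2 levels of the partners had a Pearson r of 0.046 across the 10 pairs, a description over pairs that share every library. Of 8 pairs with both partners tested, 6 were lower with YTHDF1 in both partners and 2 had opposite signs.

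Genes that act on histone mRNA or on histones were described from lists, with no test of a list. Of 24 genes for histone transcription and mRNA processing, all tested, 10 were lower and 14 higher, the median log2 fold change was 0.0044 and none passed the threshold. SLBP read 98.2 and 79.1 CPM in control and 105 and 83.0 CPM with YTHDF1, and NPAT 38.0 and 47.2 CPM against 40.3 and 49.3 CPM. NPAT was thus higher in replicate 2 of both vectors, as the histone genes were, and SLBP lower. Of 24 histone chaperone and deposition genes 9 were lower and 15 higher (median 0.0036), and of 43 S phase genes 9 were lower and 34 higher (median 0.041), against the background of 47.8% lower, with none past the threshold. The summed S phase level was 3810 and 3527 CPM in control and 3961 and 3574 CPM with YTHDF1, which is lower in replicate 2 where the histone sum was higher.

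Variant histones are mostly made outside S phase too, from mRNAs with a poly(A) tail, although H2AX is known to give a stem-loop mRNA as well. Several were far more abundant here than any replication-dependent gene, but H3-5 was under 1 CPM in all 4 libraries. Of 12 variant genes, 4 were lower and 8 higher (median 0.047), and none passed the threshold. H3-3B read 931 and 992 CPM in control and 988 and 1024 CPM with YTHDF1, and H3-3A 158 and 140 CPM against 166 and 147 CPM. H2AZ1 read 406 and 413 CPM against 413 and 428 CPM, and H2AX 136 and 156 CPM against 146 and 167 CPM. The sum of the 12 genes was 2804 and 2778 CPM in control and 2872 and 2827 CPM with YTHDF1, higher with YTHDF1 within both numbers where the replication-dependent sum was lower. One variant divided by replicate number: MACROH2A2 had 1074 and 0 counts in control and 1126 and 6 with YTHDF1, and it was chosen for mention after its values were seen.

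As poly(A) selection removes other RNA without a tail too, 17 RNAs known to lack one, such as RMRP and RN7SL1, were read beside the histone genes. Of 8 tested, 6 were lower with YTHDF1 over all libraries (median −0.44), 3 were lower within both replicate numbers and 1, SNORD3A, was higher within both. RMRP passed the threshold, at 1.04 and 0.934 CPM in control and 0.442 and 0.381 CPM with YTHDF1 (log2 fold change −1.26, SE 0.37, unadjusted p = 0.0311 and adjusted p = 1.00 by edgeR). The call was lost when any 1 library was left out (log2 fold changes from −1.37 to −1.17, unadjusted p from 0.129 to 0.182 by edgeR). The summed level of the 17 was 28.1 and 15.1 CPM in control and 14.1 and 12.01 CPM with YTHDF1, and RN7SL1 and RN7SL2 carried most of it, with 1323 and 496 counts in control and 497 and 455 with YTHDF1. Without them, a setting chosen after seeing the data, the other 15 RNAs had 350 and 358 counts in control and 335 and 270 with YTHDF1 (5.89 and 6.31 CPM against 5.69 and 4.47 CPM), which is lower within both numbers and by little in number 1. Their part in the histone difference between the vectors was not tested. Histone genes with a known polyadenylated form and the other 62 had like ratios between replicate numbers: replicate 2 was 1.38 and 1.48 times replicate 1 in the first, and 1.36 and 1.47 times in the second, for control and YTHDF1. Between the vectors their log2 ratios were −0.13 and −0.15.

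**Figure D5:**
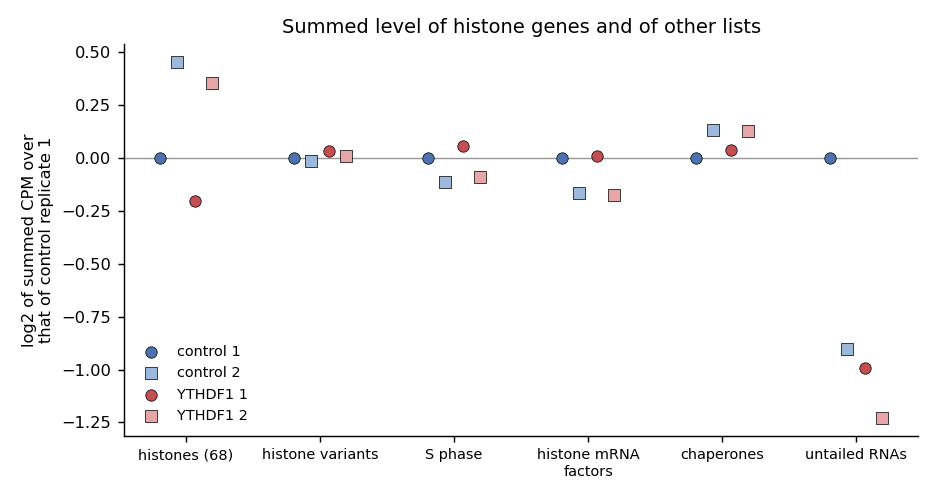
Summed level of the histone genes and of 5 other lists in each library, as the log2 ratio to control replicate 1. Histone squares (replicate 2) lie above the circles, those of the S phase and histone mRNA factor lists lie below them, and the untailed RNAs, mostly RN7SL1 and RN7SL2, are below 0 in the other 3 libraries.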

How the data were processed

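The authors deposited raw read counts per NCBI gene for 4 stranded poly(A) libraries, without normalization. Per the labels, Trimmomatic, HISAT2 and GRCh38 were used. The counting tool, strand setting, annotation release and versions are not given in the sources used here, so reads of overlapping genes, of near-identical copies and of opposite strands could not be divided again (11 histone genes overlap another gene).

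Counts were tested in edgeR 4.0.16 (R 4.3.3) by the quasi-likelihood F test on control and YTHDF1 libraries, after filterByExpr and TMM scaling, with Benjamini-Hochberg adjustment over 17781 genes. Log2 CPM used a prior count of 0.5. The threshold, a log2 fold change of 0.5 and p of 0.05, was that of the study's methods. The procedure was tested on simulated data for the more abundant genes only, so that test does not cover histone genes of low count. Intervals and floors cover counting error only. Replicate libraries differed beyond sampling noise (chi-square of 136 and 168 per degree of freedom) and each counted as 1. DESeq2 1.42.0 and limma 3.58.1 served as alternatives.

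The members, lists and tests were chosen with earlier results of these data known. Named genes were the 3 most abundant of each class, the largest rise and fall of each class among genes of at least 1 CPM, any gene called, and SLBP, NPAT, H3-3A, H3-3B, H2AZ1 and H2AX. The summed level of the immune markers is not reported here.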

Additional observations from a re-analysis of the deposited data

How the results depend on the processing

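No histone gene passed the threshold under DESeq2 size factors, limma-voom, DESeq2's Wald test, another filter, library sizes without YTHDF1 or any library left out. With a replicate block 1 did, H2BC17 (log2 fold change −0.69, unadjusted p = 0.0336, adjusted p = 0.999 by edgeR). H2BC21 (−0.45, unadjusted p = 0.000446) and H1-2 (−0.24, unadjusted p = 0.00725) had smaller p-values in this edgeR fit. Both missed the call only because their fold changes were below the size limit of the threshold. The other replication-dependent genes named for level or fold change had unadjusted p from 0.0617 (H2AC19) to 0.940 (H2AC8) with the block. The block raised the number of all genes called from 18 to 192. Deviations of same-numbered libraries correlated at r = 0.87 over all genes and 0.28 over the histone genes. Same-numbered libraries thus resembled each other over all genes, but the labels do not say what they share. An r leaves out any shift common to a set of genes, and 35 of 47 histone genes were higher in replicate 2 of both vectors. The main test left the numbers out, so its SEs and p-values include the difference between them. Without a filter 82 genes were called, and with 1 library left out 47 to 60. The H2B median was −0.30 with at least 10 counts in every library and −0.43 without overlapping histone genes, an alternative chosen after seeing the data. The H3 median turned to 0.033 with at least 10 counts, since fewer genes were tested. H2AC8 was −0.0038 by limma-voom, on the other side of 0.

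With 1 library left out, so that the lone sample is assumed to vary like the other group, medians ran from −0.55 to 0.078 over all histone genes, −0.58 to −0.030 for H1, −0.57 to 0.087 for H2A, −0.92 to 0.074 for H2B, −0.30 to 0.26 for H3 and −0.52 to −0.083 for H4, and the log2 ratio of sums from −0.45 to 0.11. Signs changed in 17 of the 26 named genes, with no new call. The ranges were −0.80 to 0.54 for H1-4, −0.59 to 0.087 for H2AC18, −0.59 to 0.078 for H2AC19, −0.40 to 0.25 for H2AC6, −0.72 to 0.64 for H2AC8, −0.36 to 0.19 for H2BC12, −0.12 to 0.21 for H2BC5, −0.37 to 0.45 for H3C10, −0.73 to 0.15 for H3C4, −0.23 to 0.21 for H3C6, −0.23 to 0.13 for H4C14, −0.27 to 0.079 for H4C15 and −0.52 to 0.35 for H4C8. Outside the histone members they were −0.012 to 0.20 for H2AX, −0.015 to 0.16 for H3-3A, −0.088 to 0.23 for NPAT and −0.094 to 0.25 for SLBP. Depth limits most the 42 genes under 1 CPM, of which 21 were not tested.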
